A study of Drosophila melanogaster with 15 samples.

Results

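Knockdown of a complex IV subunit was compared directly with knockdown of an ATP synthase subunit in neurons of the Drosophila larval central nervous system. The comparison took the 3 arrays titled COX5B RNAi against the 3 arrays titled ATPsynCf6 RNAi, 6 of the 15 arrays of the series. It was repeated with 2 COX5B RNAi arrays, leaving out replicate 1. COX5B RNAi larvae carried nSyb-Gal4 and RNAi line 105769 against COX5B. ATPsynCf6 RNAi larvae carried nSyb-Gal4 and RNAi line 107826 against ATPsynCf6. The control larvae, which are given as background and were not in the contrast, carried nSyb-Gal4 without an RNAi construct. Wandering L3 larvae of all these groups were reared at 25 °C, each sample pooled the whole central nervous system of 15 larvae, and 10 ng of RNA was amplified. Arrays of ND-75 RNAi (line 33910) and UQCR-14 RNAi (line 109542) larvae entered the fit of all 15 arrays but not the contrast. Their temperature, larvae per sample and RNA amount were the same. The labels give no age in hours. The driver nSyb-Gal4 is active in neurons, whereas the dissected tissue also held glia, neuroblasts and other cells, so that fewer cells of a type and less RNA per cell cannot be told apart. Each target had 1 RNAi line, and no RNAi construct against an unrelated gene was used here, so the target and the line cannot be told apart. The labels call the samples of a group replicates and do not say whether they came from separate crosses, so p-values measure only the spread between these samples.

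Complex IV, cytochrome c oxidase, passes electrons from cytochrome c to oxygen and pumps protons across the inner mitochondrial membrane. The ATP synthase, complex V, lets protons flow back and makes ATP from ADP. Loss of complex IV stops electron flow and proton pumping, while loss of the ATP synthase leaves the chain able to pump but removes the main outlet for the protons. Cells with impaired oxidative phosphorylation are known to shift carbon between glycolysis, the TCA cycle and the reactions that make or use oxaloacetate and malate. The comparison asks which transcripts differ with the complex that was targeted.

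The 6 arrays were of unequal quality. Signals are MAS5 intensities as deposited. The upper quartile of signal was 170 on COX5B RNAi replicate 1, 640 on replicate 2 and 481 on replicate 3, against 597 to 622 on the ATPsynCf6 RNAi arrays. The ratio of the 3′ to the 5′ actin probe set, a measure of RNA integrity and amplification, was 70.1, 3.57 and 3.58 on the COX5B RNAi arrays and 4.04 to 4.80 on the ATPsynCf6 RNAi arrays. Log2 signals of COX5B RNAi replicate 1 correlated at 0.695 to 0.715 with the ATPsynCf6 RNAi arrays, those of replicate 2 at 0.978 to 0.985 and those of replicate 3 at 0.918 to 0.927, across probe sets. The ATPsynCf6 RNAi arrays correlated at 0.986 to 0.990 with each other. COX5B RNAi replicate 3 deviated from its group mean together with replicate 3 of the control, ND-75 and UQCR-14 groups (correlations of deviations 0.595 to 0.694), and those 3 arrays also had low upper quartiles, from 360 to 485. Upper quartiles on the remaining 10 arrays of the series, COX5B RNAi replicate 2 among them, ran from 566 to 653. These 10 arrays also held ND-75 RNAi replicate 2, whose actin ratio was 37.4. On ND-75 RNAi replicate 3, outside the 10, that ratio was 20.1. Neuron markers had a summed signal of 24536 to 42411 over 8 measured markers on the COX5B RNAi arrays and 30900.5 to 36107 on the ATPsynCf6 RNAi arrays. No marker was under the array median on every array of either group. The highest sum was on COX5B RNAi replicate 1, where elav was at 16226 and nSyb at 94.6. On the ATPsynCf6 RNAi arrays nSyb was at 431 to 539.

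The transcripts of the targeted genes did not separate the groups. COX5B, which encodes a nuclear subunit of complex IV, had signals of 989, 1958 and 7716 on the COX5B RNAi arrays, 3024, 2578 and 2657 on the ATPsynCf6 RNAi arrays, and 2725, 2952 and 8404 on the control arrays. The COX5B RNAi arrays lay on both sides of the ATPsynCf6 RNAi arrays, and replicate 3 was high in both COX5B RNAi and control. The change, COX5B RNAi minus ATPsynCf6 RNAi on the scale log2(signal + 16), was -0.15 (95% interval -1.84 to 1.53, adjusted p = 0.948, limma). Without COX5B RNAi replicate 1 it was 0.50, and with replicate 2 as the only COX5B RNAi array it was -0.49 (interval -0.94 to -0.03, adjusted p = 0.414). ATPsynCF6, as the annotation spells the gene of ATP synthase coupling factor 6, had signals of 1518, 2845 and 3601 on the COX5B RNAi arrays, 3585, 2828 and 3285 on the ATPsynCf6 RNAi arrays, and 3108, 3003 and 3579 on the control arrays. The groups overlapped, with a change of -0.36 (interval -1.24 to 0.51, adjusted p = 0.710) over 15 arrays and -0.01 over 14. The tissue contained cells outside the driver's reach, whose share of these transcripts was not measured, and whether the probe sets lie outside the RNAi target regions was not tested. Neither transcript therefore checked the labels of these 2 groups.

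Pepck1 was the transcript that passed the test. It encodes phosphoenolpyruvate carboxykinase, which turns oxaloacetate into phosphoenolpyruvate, the committed step towards glucose. Its signal was 22.8, 68.6 and 31.1 on the COX5B RNAi arrays, 369, 391 and 491 on the ATPsynCf6 RNAi arrays, and 96.0, 167 and 112 on the control arrays. All COX5B RNAi arrays lay below all ATPsynCf6 RNAi arrays, and the control arrays lay between them. The log2 mean was 5.75 ± 0.59 in COX5B RNAi and 8.75 ± 0.21 in ATPsynCf6 RNAi (SD, n = 3 each), a change of -3.0 (SE 0.37, interval -3.79 to -2.21, adjusted p = 0.00761, limma). Without COX5B RNAi replicate 1 the change was -2.77 (SE 0.32, adjusted p = 0.0178, limma). On COX5B RNAi replicates 1 and 3 the signal was under the array median, so the size depended on the pseudocount, at -3.46 with 1 and -2.21 with 64 (adjusted p = 0.0153 and 0.00250, limma). Set against control in the same 15-array fit, COX5B RNAi had a change of -1.36 (adjusted p = 0.541) and ATPsynCf6 RNAi one of 1.64 (adjusted p = 0.347). Neither difference from control passed the test in that fit, and both share the control arrays. With arrays weighted by their agreement with the fit, the COX5B RNAi difference was -0.88 and the ATPsynCf6 RNAi difference 1.68. Only the latter passed (adjusted p = 0.922 and 1.01e-05, limma), and the estimate of these weights stopped before it converged. The 15-array call between the RNAi groups depended on all ATPsynCf6 RNAi arrays and on COX5B RNAi replicate 3: the adjusted p was 0.0597, 0.0731 and 0.113 without ATPsynCf6 RNAi replicate 1, 2 or 3, and 0.0687 without COX5B RNAi replicate 3, with changes of -3.08, -3.04, -2.88 and -2.91. It also rested on the spread of all 15 arrays, as the adjusted p was 0.782 when these 6 arrays were fitted alone, and it was 0.132 after each array was centred on its median.

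**Figure D1:**
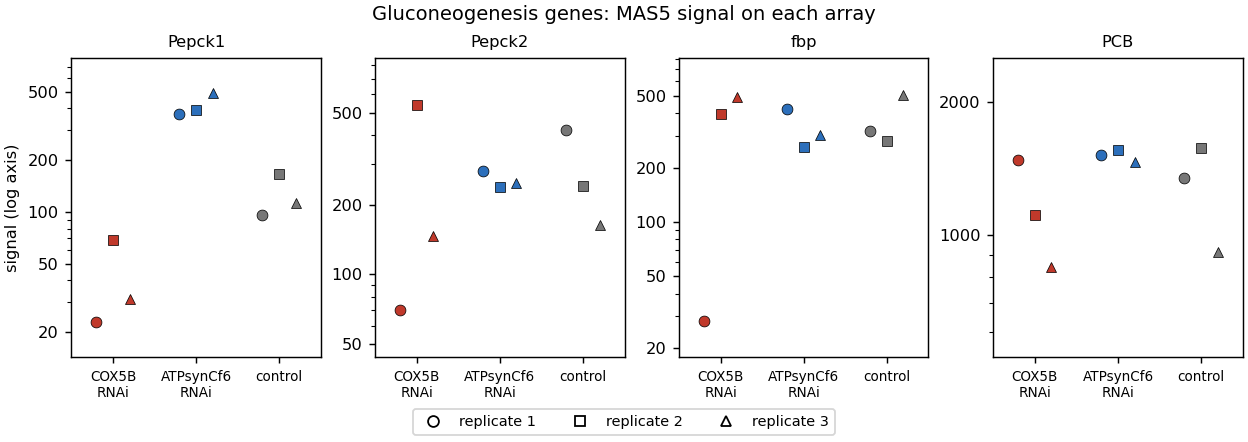
Signal of the 4 gluconeogenesis genes on each array of COX5B RNAi, ATPsynCf6 RNAi and control (log axis, 1 point an array, shape by replicate). Pepck1 lies between 22.8 and 68.6 on the COX5B RNAi arrays and between 369 and 491 on the ATPsynCf6 RNAi arrays, whereas Pepck2 and fbp overlap.

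Pepck1 was the only one of 10340 kept probe sets called in the 15-array fit, and 0 were higher and 1 lower in COX5B RNAi (0.00967% called). At an unadjusted p under 0.05 there were 700. Without COX5B RNAi replicate 1 the count was again 1 (0.00967%), Pepck1, with 212 at an unadjusted p under 0.05. With arrays weighted by their agreement with the fit (limma's arrayWeights), 2 probe sets were lower in COX5B RNAi (0.0193%) and 0 higher. They were Pepck1, with a change of -2.57 (adjusted p = 0.0300, limma), and a probe set with no gene in the annotation. The estimate of these weights stopped before it converged, and with weights estimated gene by gene, tried after the data were seen, limma called 0 probe sets, with 193 at an unadjusted p under 0.05 and Pepck1 at -2.71 (adjusted p = 0.151). The signal of the probe set with no gene was 1964, 104 and 89.6 on the COX5B RNAi arrays, 456, 476 and 682 on the ATPsynCf6 RNAi arrays, and 242, 228 and 173 on the control arrays. Replicates 2 and 3 of COX5B RNAi lay below ATPsynCf6 RNAi and replicate 1 far above, so the change was -0.90 over 15 arrays and -2.16 with weights (adjusted p = 0.0497, limma). The weights were 0.0266, 1.01 and 0.297 for COX5B RNAi replicates 1 to 3 and 3.82 to 4.78 for the ATPsynCf6 RNAi arrays.

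**Figure D2:**
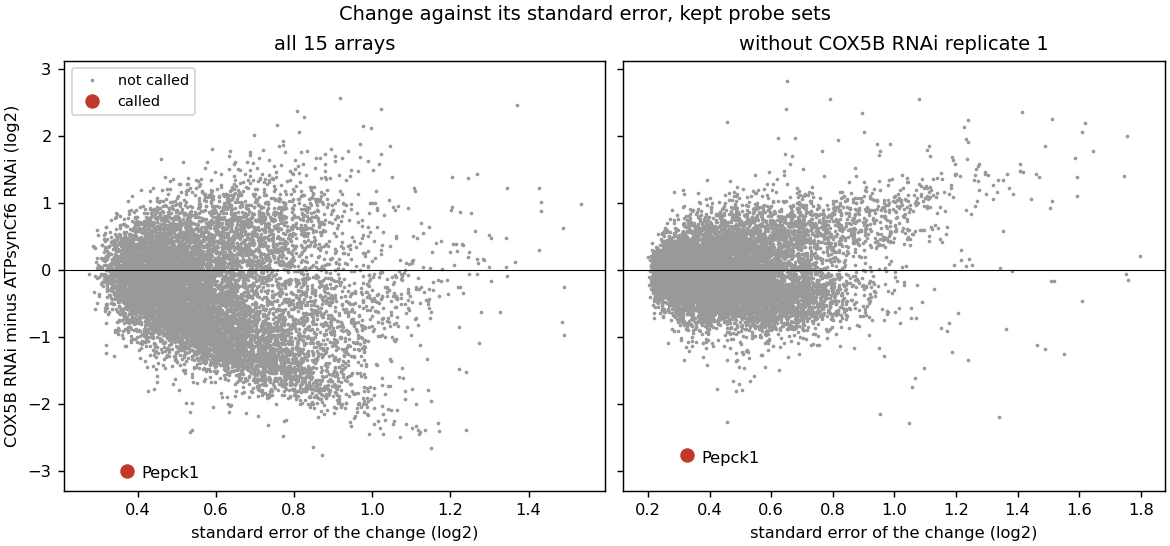
Change of each kept probe set, COX5B RNAi minus ATPsynCf6 RNAi on the log2 scale, against its standard error, with all 15 arrays and without COX5B RNAi replicate 1. Pepck1 is the called probe set in both panels, at -3.0 and -2.77, and the left panel has a lobe of negative changes that is absent on the right.

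Precision moved with the arrays in the fit. The median 95% interval reached 1.20 to either side of the change over 15 arrays, 0.986 over 14 and 0.473 over the 10 arrays without the 5 of low upper quartile, and 6.62%, 26.6% and 76.5% of probe sets had an interval within a change of 1 in either direction. With array weights over 15 arrays that share was 58.6%, or 35.8% with weights estimated gene by gene. The median change of all probe sets was -0.32 over 15 arrays, -0.06 without COX5B RNAi replicate 1 and -0.03 with weights, so a change over 15 arrays is read against -0.32. The 3 COX5B RNAi arrays lay above all ATPsynCf6 RNAi arrays for 2.90% of probe sets and below them for 10.8%. For COX5B RNAi replicates 2 and 3 alone the shares were 10.1% and 14.3%, 24.4% in all.

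The other genes of gluconeogenesis did not pass the test. Pepck2, the paralogue of Pepck1, had signals of 70.1, 537 and 147 in COX5B RNAi and 281, 238 and 248 in ATPsynCf6 RNAi. Its COX5B RNAi arrays spread to both sides of the ATPsynCf6 RNAi arrays, and the change was -0.45 over 15 arrays and 1.03 with COX5B RNAi replicate 2 alone (adjusted p = 0.767 and 0.107, limma). The gene fbp, for fructose-1,6-bisphosphatase, had signals of 28.4, 394 and 491 in COX5B RNAi and 424, 261 and 301 in ATPsynCf6 RNAi, and the groups overlapped. PCB, pyruvate carboxylase, which makes oxaloacetate, had 1474, 1108 and 842 in COX5B RNAi and 1514, 1559 and 1463 in ATPsynCf6 RNAi, a change of -0.44 over 15 arrays and -0.64 over 14 that did not pass the test.

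Because 2 of the 3 COX5B RNAi arrays stood apart, 2 further fits were examined. One left out the 5 arrays of low upper quartile, so that COX5B RNAi was represented by replicate 2 alone, a single array assumed to vary like the other groups. The other weighted the 15 arrays and added a term for the 4 deviating replicate 3 arrays, and was chosen after the data were seen. Both rest largely on COX5B RNAi replicate 2 and are not independent of each other. The 10-array fit called 39 probe sets (0.377%), 25 higher (0.242%) and 14 lower (0.135%) in COX5B RNAi. The weighted fit with the term called 76 (0.735%), 51 higher (0.493%) and 25 lower (0.242%), but 10 without COX5B RNAi replicate 1 and 0 without replicate 2 or without replicate 3, where 422 and 393 had an unadjusted p under 0.05 and the weights did not converge. With gene-by-gene weights and the term, limma called 42 (29 higher and 13 lower), of which 41 were among the 76. The genes described next did not have to meet the naming rule. They are the calls shared by the 10-array fit and the weighted fit with the term. Both called 18 probe sets in the same direction, of which 12 had 1 gene, 4 lower and 8 higher. With gene-by-gene weights 11 of these 12 genes were called, the exception being Sox102F (change -1.13, adjusted p = 0.0507, limma). Applying the naming rule to these 2 fits was decided after the data were seen.

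The 4 lower genes were Pepck1, Spn43Ab, Sox102F and MtnA. Pepck1 changed by -2.34 in the 10-array fit and -2.75 in the weighted fit with the term (adjusted p = 0.0169 and 9.33e-05, limma). Spn43Ab, a serpin, had signals of 39.4, 148 and 346 in COX5B RNAi, 453, 482 and 443 in ATPsynCf6 RNAi, and 189.7, 313 and 453 in control. Sox102F, a Sox-family transcription factor, had 21.0, 153 and 133 in COX5B RNAi, 326, 385 and 455 in ATPsynCf6 RNAi, and 230.1, 249.5 and 202 in control. In both genes all COX5B RNAi arrays lay below all ATPsynCf6 RNAi arrays, and the 10-array changes were -1.54 for Spn43Ab and -1.25 for Sox102F (adjusted p = 0.0370 each, limma). MtnA, a metallothionein that binds copper and zinc, had 5007, 5052 and 36266 in COX5B RNAi, 13491, 11504 and 11761 in ATPsynCf6 RNAi, and 9895, 7822 and 38101 in control. Its replicate 3 was high in both COX5B RNAi and control, and its change was -1.27 over 10 arrays, -0.33 over 15, 0.15 over 14 and 0.36 over 15 with median centring.

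The 8 higher genes were Syt7, Fst, CG12607, Asator, Dyrk2, gzl, swi2 and HPS4. Syt7, a synaptotagmin, the family of calcium sensors of vesicle release, had signals of 11225, 3759 and 4857 in COX5B RNAi, 1927, 1737 and 1936 in ATPsynCf6 RNAi, and 2886, 2620.2 and 3772 in control. All COX5B RNAi arrays lay above all ATPsynCf6 RNAi arrays, and control lay above ATPsynCf6 RNAi as well. The change was 1.65 over 15 arrays (adjusted p = 0.528), 1.01 over 10 (adjusted p = 0.0248) and 0.94 in the weighted fit with the term (adjusted p = 0.00825, limma). Fst, known for its induction by cold, had 24.9, 294 and 141 in COX5B RNAi, 20.2, 13.4 and 12.3 in ATPsynCf6 RNAi, and 115, 13.1 and 15.3 in control. CG12607 had 38.0, 189 and 162 in COX5B RNAi, 20.9, 30.3 and 24.7 in ATPsynCf6 RNAi, and 21.7, 9.33 and 18 in control. For both, the COX5B RNAi arrays lay above ATPsynCf6 RNAi, although 1 control array of Fst was high too. Both genes were under the array median on all ATPsynCf6 RNAi arrays, and CG12607 passed the filter on low signals only through the COX5B RNAi arrays, so no size is given and their calls support nothing.

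For the other 5 higher genes, COX5B RNAi replicates 1 and 2 lay above all ATPsynCf6 RNAi arrays and replicate 3 did not. They included the protein kinases Asator and Dyrk2, gzl, a RING finger protein, and HPS4, a subunit of a lysosome biogenesis complex. HPS4 had signals of 10570.0, 1105 and 532 in COX5B RNAi and 431, 583 and 589 in ATPsynCf6 RNAi. Replicate 3 lay among the ATPsynCf6 RNAi arrays for HPS4, Dyrk2, swi2 and Asator and below them for gzl. Their 10-array changes ran from 0.98 for Dyrk2 to 1.19 for Asator.

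**Figure D3:**
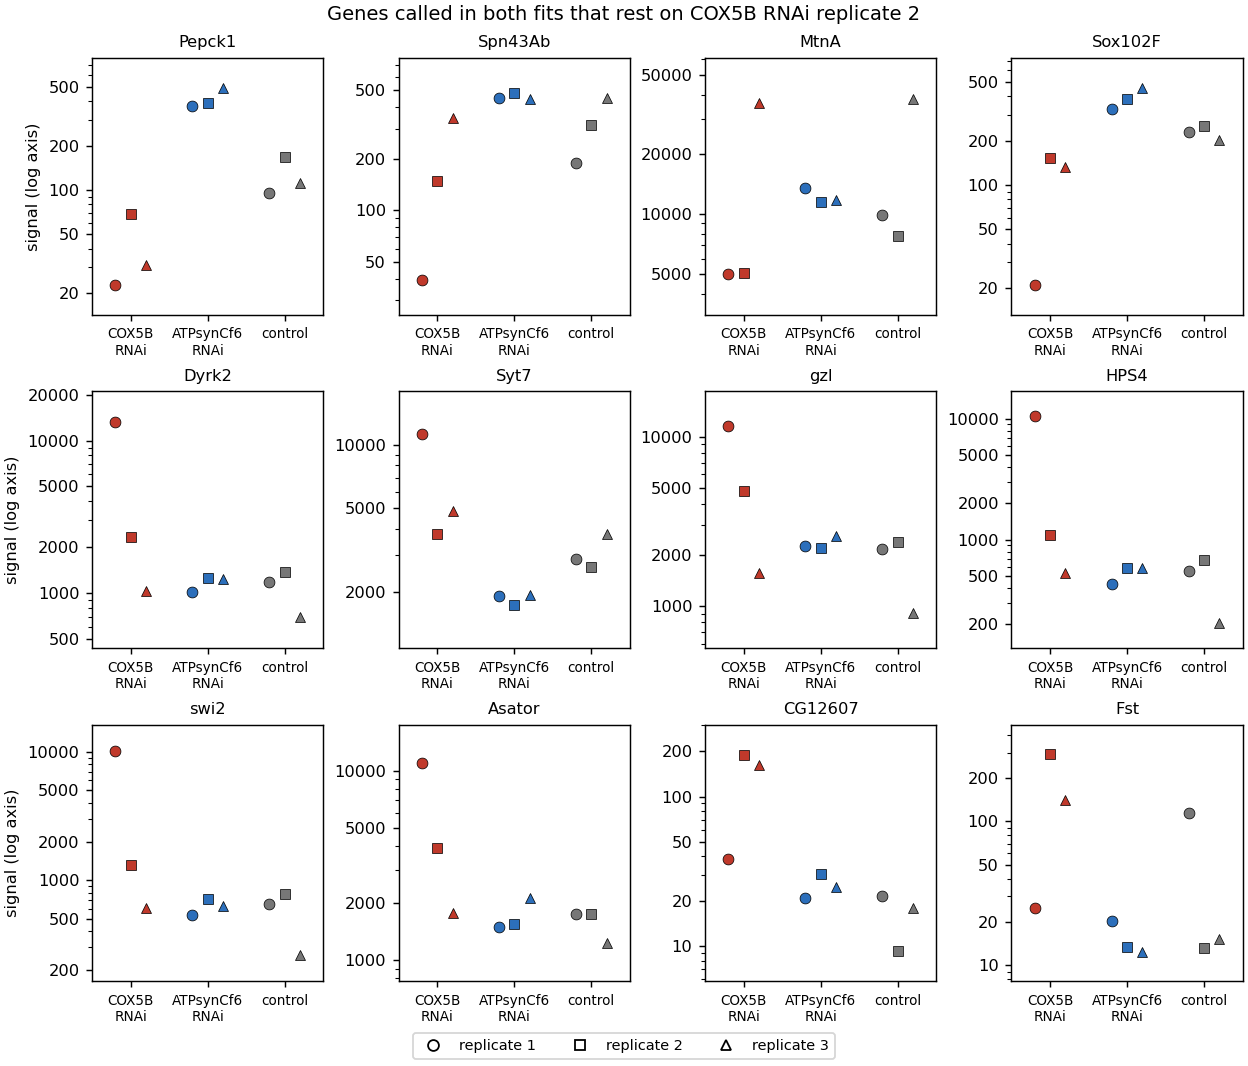
Signal on each array of the 12 genes called in both the 10-array fit and the weighted fit with a term for 4 replicate 3 arrays (log axis, 1 point an array, shape by replicate, COX5B RNAi, ATPsynCf6 RNAi and control). Pepck1, Spn43Ab and Sox102F have all COX5B RNAi arrays below all ATPsynCf6 RNAi arrays, and COX5B RNAi replicate 3 lies apart from replicate 2 for MtnA, gzl and HPS4.

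Malic enzyme and a heat shock cognate were called in 1 of these 2 fits. Men, cytosolic malic enzyme, which turns malate into pyruvate and yields NADPH, had signals of 284, 1875 and 1115 in COX5B RNAi, 3903, 3712 and 3565 in ATPsynCf6 RNAi, and 2641, 3115 and 1023 in control. All COX5B RNAi arrays lay below all ATPsynCf6 RNAi arrays, with a change of -2.12 over 15 arrays (adjusted p = 0.528), -0.98 over 10 (adjusted p = 0.0370) and -0.71 in the weighted fit with the term (adjusted p = 0.0874, limma). Hsc70-2, of the heat shock 70 family, had 36.2, 215 and 188 in COX5B RNAi, 575, 493 and 484 in ATPsynCf6 RNAi, and 10.9, 7.14 and 32.3 in control. Both RNAi groups lay above control and COX5B RNAi lay below ATPsynCf6 RNAi on every array. The change between the RNAi groups was -1.98 over 15 arrays (adjusted p = 0.528), -1.21 over 10 (adjusted p = 0.193) and -1.78 in the weighted fit with the term (adjusted p = 0.00941, limma). Against control in the 15-array fit the changes were 2.12 for COX5B RNAi (adjusted p = 0.541) and 4.10 for ATPsynCf6 RNAi (adjusted p = 0.00537), with shared control arrays.

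By the naming rule the 10-array fit also named, among others, HDAC4 and EcR as higher and Slik, CG17816, futsch and Plc21C as lower. EcR, the ecdysone receptor, had signals of 10476, 1208 and 963 in COX5B RNAi and 664, 638 and 700.1 in ATPsynCf6 RNAi. HDAC4, a histone deacetylase, changed by 1.04 over 10 arrays. The microtubule-associated protein gene futsch changed by -0.94, and Slik, a protein kinase gene, by -1.52. A further probe set of Slik was at 0.01, and a further one of CG17816 was at 0.02. Neither of 2 dim further probe sets of futsch passed the test.

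The weighted fit with the term named 8 more genes as higher and 7 more as lower, Hsc70-2 among them. The higher ones were Muc11A, mtt, SPoCk, Syp, rau, Nrx-IV, CG13362 and CG42540, and the other lower ones were PH4alphaSG1, CG31675, Ir76a, Slc45-1, CG15201 and Nepl15. SPoCk, a calcium pump of the secretory pathway, had signals of 11022, 4830.2 and 4310.4 in COX5B RNAi and 2111, 1950.5 and 2809 in ATPsynCf6 RNAi, with all COX5B RNAi arrays higher. Nrx-IV, a septate junction protein, likewise had 12311, 5675 and 5767 in COX5B RNAi and 3509.7, 3019.8 and 3837 in ATPsynCf6 RNAi. PH4alphaSG1, a prolyl 4-hydroxylase subunit, had 14.1, 9.68 and 18.9 in COX5B RNAi, 106, 120.5 and 50.2 in ATPsynCf6 RNAi, and 1.24, 2.35 and 14.6 in control. PH4alphaSG1 passed the filter on low signals only through the ATPsynCf6 RNAi arrays, so its call supports nothing. Muc11A had 14.3, 184 and 106 in COX5B RNAi, 16.3, 8.01 and 8.68 in ATPsynCf6 RNAi, and 204, 23.5 and 3.41 in control. Muc11A was under the array median on all ATPsynCf6 RNAi arrays and highest on a control array, so its call supports nothing either. A further probe set of Syp was at -0.41 over 10 arrays, and those of CG42540 were at -0.017 and -0.32. With gene-by-gene weights 8 of these 15 genes were called, namely Muc11A, SPoCk, Nrx-IV, CG42540, PH4alphaSG1, CG31675, Hsc70-2 and Slc45-1.

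No gene of the targeted complexes passed the test. Of 11 measured complex IV subunits, 0 lay wholly above or below ATPsynCf6 RNAi on COX5B RNAi replicates 2 and 3, against 9.51% above and 14.8% below, 24.3% in all, over 7947 genes. Their median change was -0.02 over 15 arrays, 0.35 over 14 and -0.25 over 10, beside -0.39, -0.09 and 0.03 for all genes. COX4 had signals of 3604, 4179 and 8876 in COX5B RNAi and 5802, 5452 and 5079 in ATPsynCf6 RNAi. COX5A had 1299, 3647 and 17746 in COX5B RNAi and 4543, 4107 and 4299 in ATPsynCf6 RNAi. Each of the 5 brightest subunits, COX7C, COX7A, COX4, COX5A and cype, was highest on COX5B RNAi replicate 3, as it was on replicate 3 among the control arrays. Of 13 ATP synthase subunits, 1 lay below ATPsynCf6 RNAi on all COX5B RNAi arrays and 0 above. Over all 7947 genes 904 lay below and 199 above, so the share below was no higher than that of all genes. The 1 gene was blw, the alpha subunit, with 2071, 7719 and 7783 in COX5B RNAi and 8919.5, 10153 and 10915 in ATPsynCf6 RNAi. The list's median was -0.70 over 15 arrays, 0.15 over 14 and -0.28 over 10. ATPsynF, ATPsyngamma, ATPsynC and ATPsynD, the other bright subunits, overlapped.

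Glycolysis and the TCA cycle had no called gene in the 15- or 14-array fit. Of 10 glycolysis genes, 0 lay above and 4 below ATPsynCf6 RNAi on COX5B RNAi replicates 2 and 3, namely Hex-A, hexokinase, Pgi, Pfk and Ald1, which were named after their values were seen. The counted probe set of Ald1 had a positive change over 15 arrays, whereas a further probe set was at -0.93. Over all genes the shares were 9.51% above and 14.8% below, and the medians -0.39 over 15 arrays, -0.09 over 14 and 0.03 over 10. Pgi, phosphoglucose isomerase, had signals of 864, 4461 and 3412 in COX5B RNAi, 6206, 6808 and 6788 in ATPsynCf6 RNAi, and 4093, 4558 and 2129.9 in control. Eno, enolase, had 1353, 4759.8 and 9061 in COX5B RNAi and 8102, 9171 and 8094 in ATPsynCf6 RNAi, and Gapdh1 and Tpi also overlapped. The glycolysis median was -1.03 over 15 arrays, -0.13 over 14 and -0.49 over 10. Of 14 genes listed for the TCA cycle and 2-hydroxyglutarate, 0 lay above and 7 below, beside the same shares over all genes, with medians of -1.07, -0.29 and -0.19. The list was not confined to the mitochondrial cycle. It also held Men, the cytosolic malic enzyme described before, which is counted among the 7. Idh, NADP-dependent isocitrate dehydrogenase, had 1369, 5909.7 and 4614 in COX5B RNAi, 6969.9, 8078 and 7624 in ATPsynCf6 RNAi, and 6715, 5996 and 4414 in control. Scsalpha1, Ogdh, Mdh1 and ScsbetaA, the next brightest, overlapped.

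The trehalose transporter gene Tret1-1 was high in both RNAi groups and did not separate them. It had signals of 3031, 2781 and 1799.7 in COX5B RNAi, 2733, 3514 and 3038 in ATPsynCf6 RNAi, and 414, 716 and 520.0 in control. The change between the RNAi groups was -0.31 over 15 arrays and -0.46 over 14, neither past the test. Treh, trehalase, had 2594, 1984 and 1108 in COX5B RNAi and 2225, 2243 and 2153 in ATPsynCf6 RNAi.

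Stress lists gave no called gene over 15 or 14 arrays. Their counts stand beside 9.51% above and 14.8% below over all genes, whose medians were -0.39, -0.09 and 0.03. Of 18 listed targets and regulators of ATF4, the transcription factor of the integrated stress response, 1 lay above and 7 below ATPsynCf6 RNAi on COX5B RNAi replicates 2 and 3, with medians of -0.42 over 15 arrays, -0.37 over 14 and -0.14 over 10. Of 9 cytosolic heat shock genes, 0 lay above and 2 below, a share near that of all genes, with medians of -0.51, -0.01 and -0.22. The 29 cytosolic ribosomal protein genes overlapped throughout, and their median was -0.11 over 15 arrays, 0.47 over 14 and -0.52 over 10.

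**Figure D4:**
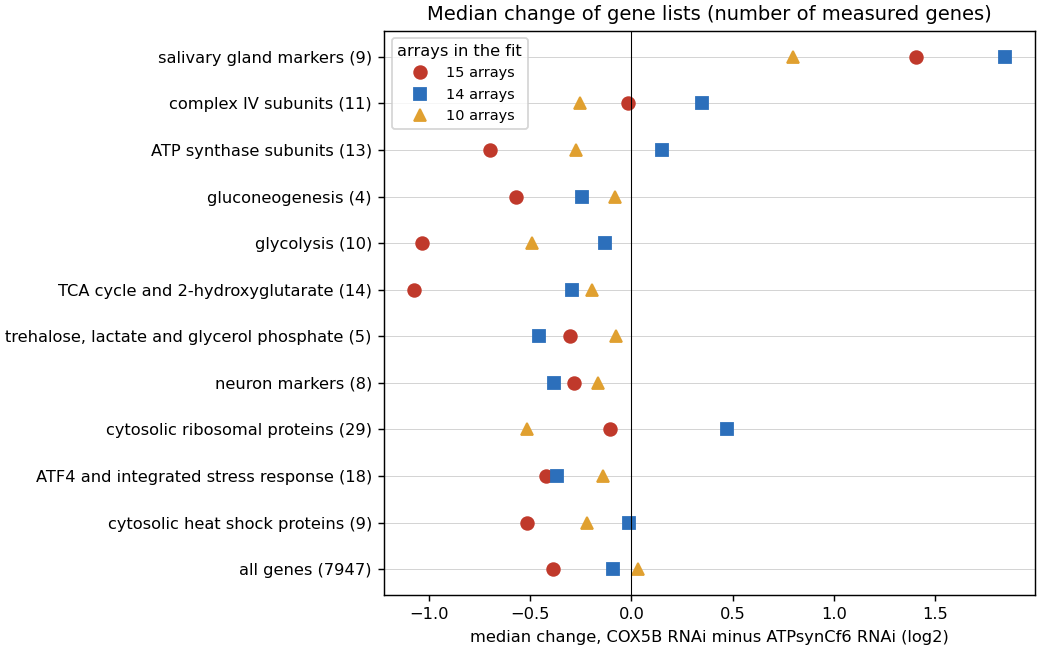
Median change of 11 gene lists and of all genes, COX5B RNAi minus ATPsynCf6 RNAi on the log2 scale, in the fits of 15, 14 and 10 arrays. Salivary gland markers lie at 1.41, 1.85 and 0.80, and the medians of ribosomal proteins and of both targeted complexes lie on both sides of 0.

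Among markers of other cells, those of the salivary gland lay higher in COX5B RNAi without passing the test. Of 9 kept salivary gland markers, the glue proteins and their neighbours, 8 lay above and 0 below ATPsynCf6 RNAi on COX5B RNAi replicates 2 and 3, beside 9.51% above and 14.8% below over all genes. Of the 13 markers on the array, 6 were under the array median on all ATPsynCf6 RNAi arrays: Sgs1, ng1, ng2, ng3, ng4 and Eig71Ea. The filter did not remove all of these, so the 8 were not all clear of the floor in ATPsynCf6 RNAi. Summed over 13 markers on the array, their signal was 2939, 2463 and 11531 in COX5B RNAi, 1887, 1087 and 1112 in ATPsynCf6 RNAi, and 1045, 1987 and 14073 in control. The glue gene Sgs3 had 756, 668 and 2184 in COX5B RNAi and 427, 272 and 270.1 in ATPsynCf6 RNAi, and Sgs5 had 729.7, 284 and 888 in COX5B RNAi and 208, 111 and 83.1 in ATPsynCf6 RNAi. The median change was 1.41 over 15 arrays, 1.85 over 14 and 0.80 over 10, and 0 markers passed the test. Without COX5B RNAi replicate 3, the change of Sgs8 was 0.20 and that of Sgs7 0.20, against 1.44 and 1.18 with it. Sgs4 was at 1.41 over 15 arrays and at 0.74 without COX5B RNAi replicate 1. Its signals on COX5B RNAi replicates 1 to 3 were 819, 177 and 208. Of 8 neuron markers, 4 lay below ATPsynCf6 RNAi on COX5B RNAi replicates 2 and 3 and 0 above, beside the same shares over all genes. They were elav, nSyb, nrv3 and fne, named after their values were seen. With COX5B RNAi replicate 1 as well, 3 of them lay below, the exception being elav. Control replicate 3 also lay below all ATPsynCf6 RNAi arrays for elav and for nSyb, the latter at 264 against 431 or more. Of 21 glial genes 1 lay above and 7 below, and of 24 genes of neuroblast identity 1 lay above and 7 below, with 0 called in either list over 15 or 14 arrays. The gene elav, an RNA-binding protein of neurons, had signals of 16226, 4818 and 3731 in COX5B RNAi, 6594, 7221 and 7423 in ATPsynCf6 RNAi, and 9888, 6702 and 4496 in control. The part of these markers in the differences of other genes was not tested.

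**Figure D5:**
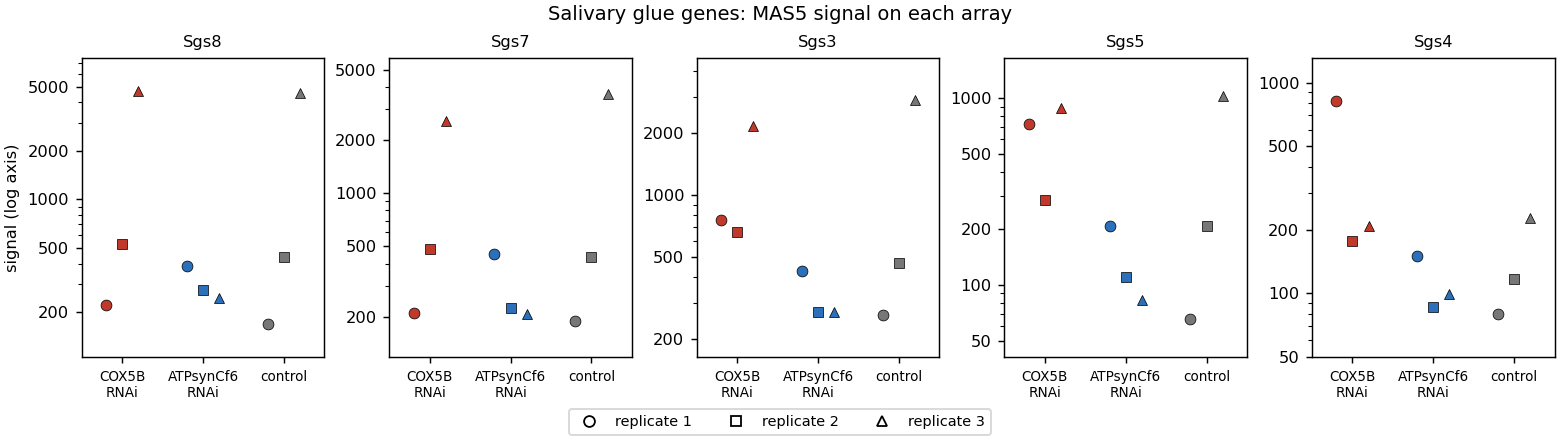
Signal of the 5 brightest salivary glue genes on each array of COX5B RNAi, ATPsynCf6 RNAi and control (log axis, 1 point an array, shape by replicate). COX5B RNAi replicates 2 and 3 lie above all ATPsynCf6 RNAi arrays for each gene, and replicate 3 of COX5B RNAi and of control is high, as for Sgs8 with 4715 and 4574.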

How the data were processed

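Per the labels, biotin-labelled cDNA from 15 samples was hybridised to Affymetrix arrays. The deposited values are intensities on a linear scale for 18952 probe sets, made by the authors with MAS5, per the submitters' processing notes, which also name Expression Console and Transcriptome Analysis Console. The background handling and genome build are not given in the sources used here.

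The 183 array controls were set aside. Probe sets over the array's own median on at least 3 of 15 arrays were kept (10340, of which 8695 had 1 gene, 256 several and 1389 none listed). Values were log2(intensity + 16). limma 3.58.1 in R 4.3.3 fitted 5 group means over 15 arrays (lmFit, eBayes with trend), and Benjamini-Hochberg adjustment ran over all kept probe sets, two-sided, at 0.05. Single genes got no permutation test, since the smallest exact p for groups of 3 is 0.1. Same-numbered arrays of the 2 groups deviated with correlations of -0.16 to 0.08, so numbers were not taken as pairs. The script was tested on simulated data in which every array had the same spread. The simulated arrays had no deviating COX5B RNAi replicate 1 and no shared replicate 3 deviation. The test therefore cannot show how the fits behave on such arrays.

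The comparison, lists and settings were chosen with earlier results of these data known. The rule names up to 10 called genes a direction in 3 fits (15 arrays, 14 arrays, array weights) with 1 symbol, COX5B RNAi replicates 2 and 3 on 1 side of ATPsynCf6 RNAi and a group mean signal over 50, then up to 5 members of a described list, called ones first and then the brightest. Of the genes the rule names in the 10-array fit, a single one is not reported here.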

Additional observations from a re-analysis of the deposited data

Results flagged for a closer look

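Pepck1 lay below control on the COX5B RNAi arrays and above control on the ATPsynCf6 RNAi arrays. Neither difference from control passed the test over 15 arrays without weights (adjusted p = 0.541 and 0.347, limma). With array weights, whose estimate did not converge, only the ATPsynCf6 RNAi difference passed (adjusted p = 0.922 and 1.01e-05, limma). The difference between the RNAi groups, the comparison itself, was -3.0 on the log2 scale (adjusted p = 0.00761, limma). COX5B RNAi lay lower than ATPsynCf6 RNAi on 3 of 3 arrays.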

How the results depend on the processing

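Depth cannot be given for array intensities. Of the 3 COX5B RNAi arrays, 2 stood apart, and the median 95% interval reached 1.20 to either side of the change over 15 arrays and 0.473 over 10. Pepck1 was lower in COX5B RNAi under every setting run, but its call over 15 arrays was lost with median centring, with only these 6 arrays, with gene-by-gene weights, without any 1 ATPsynCf6 RNAi array or COX5B RNAi replicate 3, and in 6 of 12 weighted fits that left out 1 array. The estimate of the array weights stopped before convergence in 15 of 22 weighted fits, among them the fit with weights alone and the one with weights and the replicate block. Some of the 22 repeat the same arrays and design, so they are not 22 distinct estimates, and gene-by-gene weights are not counted. The causes of the other changes below were not tested.

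Over 15 arrays limma called 1 probe set, and the count was 1 as well with pseudocounts of 1 and 64, no filter, a filter of 6 of 15 arrays, quantile normalization, the term for 4 replicate 3 arrays and the replicate block. It was 0 with median centring (651 at an unadjusted p under 0.05), 0 with only the 6 arrays (144), 0 with gene-by-gene weights (193), 2 with weights, 4 with quantile normalization and weights, 76 with weights and the term, 42 with gene-by-gene weights and the term, 34 with weights and the replicate block, and 39 over 10 arrays. Leaving out 1 array in turn gave 0 to 143 over weighted and unweighted fits, and 0 to 1 without weights. Without COX5B RNAi replicate 1 limma called 1, but 0 with no filter (420 at an unadjusted p under 0.05), 0 with weights (240), 0 with gene-by-gene weights (243), 0 with quantile normalization and weights (333) and 0 with only the arrays of both groups (572). It called 10 with weights and the term by either estimate, 14 with weights and the replicate block, and 0 to 2 with a further array left out. The replicate number as a block, which does not pair these samples, left 1 call over 15 and over 14 arrays (Pepck1 at -3.0, adjusted p = 0.00474, limma, over 15).

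Some genes not called over 15 arrays changed direction, among them MtnA and Plc21C, which were called over 10 arrays. With each array centred on its median, the changes were 0.53 for the COX5B transcript, 0.32 for the ATPsynCf6 transcript, 0.18 for Plc21C, 0.36 for MtnA, 0.25 for PCB, 0.24 for Pepck2, 0.37 for Scsalpha1, 0.63 for ScsbetaA, 0.32 for COX7A, 0.60 for COX4, 0.46 for ATPsynF, 0.31 for nrv3, 0.60 for elav, 0.39 for Treh and 0.37 for Tret1-1. With gene-by-gene weights, the changes were 0.25 for the COX5B transcript, 0.33 for fbp, 0.28 for Pepck2, -0.25 for Ald1, 0.22 for Mdh1, 0.13 for ScsbetaA, 0.036 for COX4 and 0.069 for ATPsynD. With the term, the changes were 0.031 for Plc21C, -0.40 for COX7C, -0.74 for COX5A, -0.36 for cype, 0.30 for elav and 0.062 for Treh. With weights, the changes were 0.31 for fbp, 0.59 for Pepck2, -0.26 for Ald1, 0.00055 for Mdh1, 0.075 for ScsbetaA and -0.018 for cype. With quantile normalization and weights, the changes were 0.29 for fbp, 0.76 for Pepck2, -0.13 for Ald1, 0.028 for ScsbetaA, -0.022 for COX5A and -0.14 for cype. Over 10 arrays, the changes were 0.28 for fbp, 1.03 for Pepck2, -0.26 for Ald1, -0.037 for COX7C, -0.24 for COX5A and -0.25 for cype. With quantile normalization, the changes were 0.20 for Pepck2, -0.14 for Ald1, 0.050 for ScsbetaA, -0.069 for COX7C, -0.13 for COX5A and -0.24 for cype. With weights and the term, the changes were 0.46 for Pepck2, -0.17 for Ald1, -0.070 for COX7C, -0.017 for COX5A, -0.24 for cype and 0.19 for fne. With weights and the replicate block, the changes were 0.42 for Pepck2, -0.15 for Ald1, 0.028 for ScsbetaA, -0.18 for cype and 0.16 for fne. With gene-by-gene weights and the term, the changes were 0.57 for Pepck2, -0.19 for Ald1, -0.060 for COX7C, -0.063 for COX5A, -0.24 for cype and 0.11 for fne. With a pseudocount of 1, the change was -0.00022 for cype. Leaving out 1 array in turn, with and without weights, gave -0.97 to 0.51 for the COX5B transcript, -0.63 to 0.0013 for the ATPsynCf6 transcript, -1.12 to 0.42 for Plc21C, -1.28 to 0.16 for MtnA, -1.59 to 0.47 for fbp, -1.19 to 0.69 for Pepck2, -0.31 to 0.37 for Ald1, -1.75 to 0.089 for Gapdh1, -1.58 to 0.12 for Tpi, -0.0049 to 1.07 for Ogdh, -1.76 to 0.47 for Mdh1, -0.27 to 0.19 for ScsbetaA, -0.45 to 1.05 for COX7C, -0.81 to 0.0072 for COX7A, -0.48 to 0.17 for COX4, -0.98 to 0.90 for COX5A, -0.40 to 0.28 for cype, -0.83 to 0.18 for ATPsynF, -1.42 to 0.14 for ATPsyngamma, -2.11 to 0.32 for ATPsynD, -0.047 to 2.39 for Sgs8, -0.20 to 2.00 for Sgs7, -0.74 to 0.55 for elav, -0.57 to 0.042 for Treh, -1.38 to 0.096 for nSyb and -1.50 to 0.21 for fne.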
